A study of Mus musculus with 12 samples.

Results

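Untreated mouse colon was compared with colon taken 1 week after a single injection of azoxymethane (AOM), before any dextran sulfate sodium (DSS) had been given. The comparison held 6 of the 12 arrays of an AOM/DSS colon cancer time course, chosen by their labels: the 3 arrays from untreated animals at 0 weeks and the 3 from animals given AOM alone. All groups came from male C57BL/6 mice, and total RNA from colorectal tissue was hybridised to 1-colour Agilent arrays with 60-base probes. The untreated group had received neither agent, and the 1-week group had received AOM at 10 mg/kg into the peritoneum. The other 6 arrays entered the fit to estimate the spread and are cited only where a probe's later level is given. They were 3 at 2 weeks, after AOM and 1 course of DSS at 2% in drinking water, and 3 from tumour at 10 weeks. The 10-week group had received AOM at 10 mg/kg and DSS at 2%. The stated model has 3 cycles of 7 days of DSS and 14 days of water. The labels call the 1-week tissue colitis, although the stated schedule starts DSS only 7 days after AOM.

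AOM is a carcinogen that is activated in the liver and colon and alkylates DNA, and rodents given it develop tumours mainly in the distal colon. The cells of the crypt answer such damage with repair, arrest or death, and the lost cells are replaced from the stem cells at the crypt base. DSS injures the colonic epithelium and inflames it, and in the combined model it speeds the formation of tumours. The animals at 1 week had met the first agent alone.

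The results are given by probe and not by gene. The deposited array files give no gene for a probe: where a name should stand they hold the ID again, and the position is listed as unmapped. For the same reason the markers of epithelium, muscle or immune cells could not be used to check the labelled tissue. In a bulk sample a lower signal from fewer cells of a type cannot be told apart from less RNA per cell. The identity given for each probe is its ID and its sequence. The 4 probes with the largest rises among those that passed the test are shown here because their values are given array by array in the results (5′ to 3′, as deposited):

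A_51_P169476: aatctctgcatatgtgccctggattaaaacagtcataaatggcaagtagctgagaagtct
A_51_P339843: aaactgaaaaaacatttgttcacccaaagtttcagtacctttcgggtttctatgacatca
A_55_P1962723: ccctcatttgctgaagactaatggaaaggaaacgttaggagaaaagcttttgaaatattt
A_52_P95161: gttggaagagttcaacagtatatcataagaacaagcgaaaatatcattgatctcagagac

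The 4 with the largest falls were these:

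A_55_P2491758: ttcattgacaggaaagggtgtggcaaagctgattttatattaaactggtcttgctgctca
A_55_P2142941: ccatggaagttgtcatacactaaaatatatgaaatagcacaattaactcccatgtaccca
A_52_P883557: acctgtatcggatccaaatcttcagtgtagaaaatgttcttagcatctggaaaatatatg
A_52_P436590: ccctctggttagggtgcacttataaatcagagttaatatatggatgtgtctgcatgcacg

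Each array carried 145548 different probes, and 51246 to 58405 of them (35.2% to 40.1%) were well above background, here called detected, per array. The comparison covered the 55411 probes that were well above background on at least 3 of the 6 arrays, and 45506 of these were so on all 6. The level of a probe is its log2 processed signal after each array was scaled by its 75th percentile, and a change is the 1-week mean minus the 0-week mean on that scale. The 6 arrays lay on 4 slides, and no slide held both groups. One slide held 0-week replicates 1 and 2, another held 1-week replicates 2 and 3, and 0-week replicate 3 and 1-week replicate 1 each lay on a slide of its own. Values within a slide therefore cannot be given for this comparison. Apart from the slides, 3 of the 6 arrays (0-week replicate 2 and 1-week replicates 1 and 3) shared very high signals on a small set of probes, described with the single arrays.

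One week after AOM alone a small share of probes was called different from untreated colon, and more of the called probes were higher than lower. Of 55411 tested probes 798 changed (1.44%), 545 higher (0.984%) and 253 lower (0.457%), at a limma Benjamini-Hochberg adjusted p below 0.05 with the spread taken over all 12 arrays. Of these, 549 (0.991%) moved by at least 2-fold, 381 up and 168 down. Across all tested probes the median change was -0.01, and the middle 90% of changes lay between -0.72 and 0.73. The typical called rise was 1.20 and the typical called fall -1.13, both as medians. The number called rests on single arrays and on how the spread is estimated: 98 were called when 0-week replicate 1 was left out, 130 when 0-week replicate 2 was, 139 and 133 when 1-week replicates 2 and 3 were, and 99 (0.179%) when the 2 groups were fitted on their own. With the slide as a random block 1658 were called. No slide held both groups, so this block does not give a comparison within slides. The consensus correlation within slides that it used was -0.09.

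The same comparison in the deposited log2 table gave 797 called probes (1.44%), 535 higher and 262 lower. Both lists held 712 probes, which is 89.2% of the first and 89.3% of the second, and no probe was called in opposite directions. Changes from the 2 sources correlated at 0.998 across the 55411 probes, which share the same hybridisations. For the called probes the median absolute difference between the sources was 0.04 and the largest 0.24 on the log2 scale.

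Large changes were few, and the share that passed the test rose with size. No probe with a change under 0.5 on the log2 scale was called. Between 0.5 and 1, 164 rises and 85 falls were called, or 2.54% of the probes of that size. Between 1 and 2 there were 320 called rises and 144 called falls (22.8%), and between 2 and 3 there were 45 and 20 (46.4%). Among all tested probes, called or not, 4197 were higher and 5587 lower between 0.5 and 1. Between 1 and 2 these counts were 1168 and 869, and between 2 and 3 they were 101 and 39. Of the 25 probes that moved by 3 or more, 21 were higher and 4 were lower, and 16 and 4 of these were called (80%). The test uses the size of the change, so the shares called describe its reach and not a separate finding. All sizes here are measured changes. Those of 3 or more include falls that no 1-week array detected (A_55_P2142941, A_52_P883557 and A_52_P436590). They also include rises that no untreated array detected, such as A_51_P339843 and A_55_P1962723. For such probes the bound, given below, is the size to read.

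**Figure D1:**
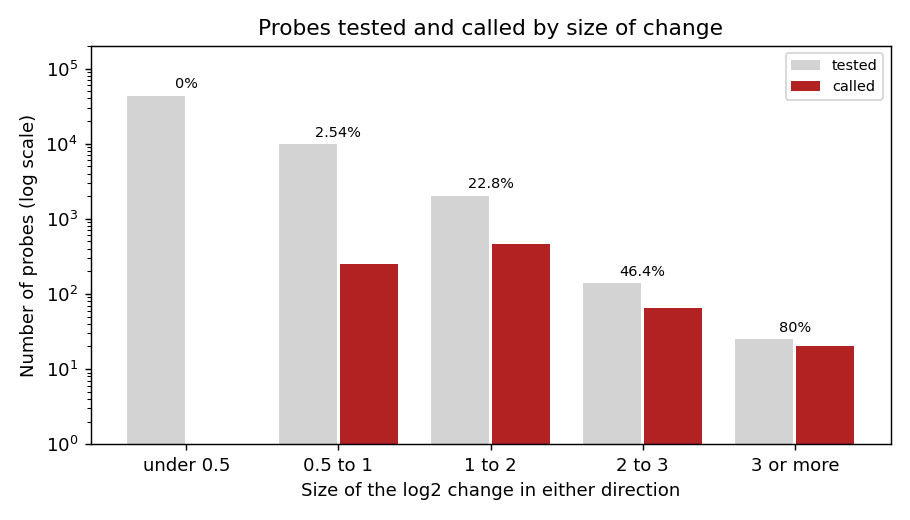
Bars give the number of probes tested (grey) and called (red) on a log scale, by the size of the log2 change between 1 week and 0 weeks in either direction, with the percent called above each pair. The percent called goes from 0% under 0.5 to 80% at 3 or more, while the number of tested probes falls to 25.

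Dim probes held the larger changes and a larger part of the falls. Among the dimmest 18471 probes 188 were called higher and 122 lower, in the middle 18470 the counts were 173 and 88, and in the brightest 18470 they were 184 and 43. The median SD between the 3 untreated arrays was 0.31, 0.21 and 0.16 in these 3 bands, and that of the 1-week arrays was 0.35, 0.24 and 0.20. The median absolute change of called probes went from 1.42 in the dimmest band to 1.03 in the brightest. The deposited log2 values gave 205 higher and 127 lower in the dimmest band, and 169 and 41 in the brightest. Of the called rises 392 were on probes well above background on all 6 arrays, and 85 were on probes that no untreated array detected. Of the called falls 159 were detected on all 6 arrays, and 56 were not detected on any 1-week array.

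**Figure D2:**
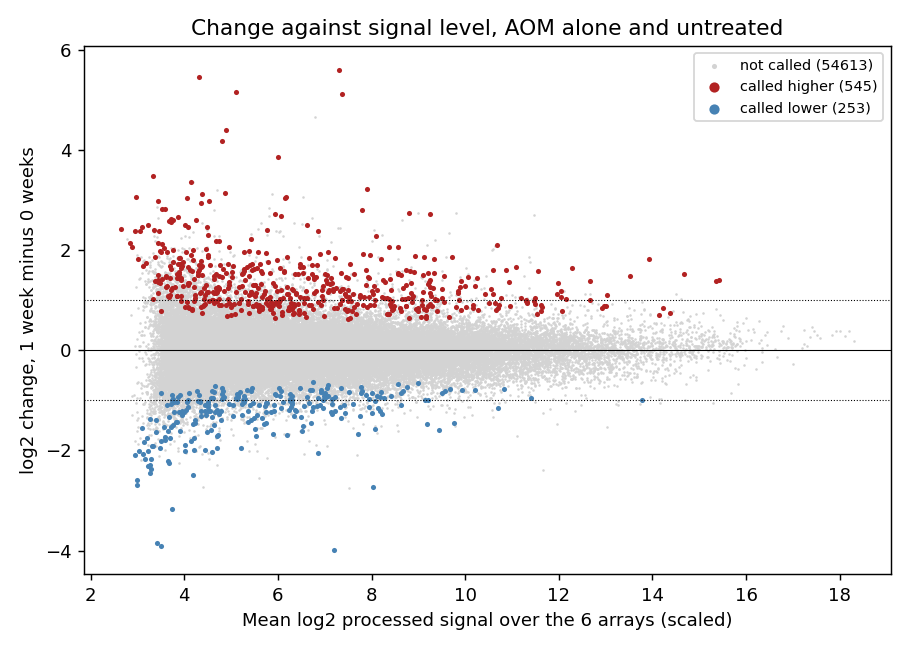
Each point is 1 of the 55411 tested probes, with its mean scaled log2 signal over the 6 arrays on the x axis and its log2 change on the y axis; 545 red points were called higher, 253 blue points lower, and dotted lines mark a 2-fold change. The spread of the uncalled points narrows as the signal rises, and the largest called changes lie at levels below 8.

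Probe A_52_P95161 gave the most even of the 4 rises shown. Its level was 4.60, 4.74 and 5.11 on the untreated arrays and 10.21, 9.32 and 10.25 after AOM, in the order of replicates 1 to 3. The groups were far apart, and each 1-week array stood more than 4 above every untreated one. The rise was 5.11 (SE 0.38), or 34.6-fold, with a limma adjusted p of 0.00018 (4.94 and 0.0003 in the deposited values). It passed under all 17 other settings that could be run, with adjusted p from 8.2e-05 to 0.011. Later arrays read 10.07 to 11.39 at 2 weeks and 11.76 to 12.66 at 10 weeks, all above the untreated arrays.

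Probe A_51_P169476 had the largest change of all, 5.59 (SE 0.60) or 48.3-fold, with a limma adjusted p of 0.0040. The untreated arrays read 4.21, 4.85 and 4.48 and the 1-week arrays 9.16, 11.33 and 9.83, so the treated arrays differed among themselves by over 2 on the log2 scale. When the 2 groups alone were fitted the limma adjusted p was 0.026. Its level was 7.15, 8.40 and 8.10 at 2 weeks and 9.21, 8.19 and 10.36 at 10 weeks.

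Probes A_51_P339843 and A_55_P1962723 were not well above background on any untreated array, so they entered the test through the 1-week group alone. Their rises are lower bounds, with the measured change and p as descriptions, computed against the lowest signal detected on each untreated array or the probe's own signal where that was higher. Probe A_51_P339843 read 1.43, 1.39 and 1.93 untreated and 6.22, 7.98 and 6.88 at 1 week, at least 12.2-fold higher (measured change 5.44, limma adjusted p = 0.0020). Probe A_55_P1962723 read 1.31, 2.83 and 3.40 untreated and 6.78, 8.23 and 8.01 at 1 week, at least 18.97-fold higher (measured change 5.16, limma adjusted p = 0.0083). Both were the brightest of the probes seen at 1 week and on no untreated array. In both, 1-week replicate 1 was the lowest of the 3 treated arrays, as it was for A_51_P169476. On the later arrays A_51_P339843 read 4.18 to 5.31 at 2 weeks and 5.25 to 7.16 at 10 weeks, and A_55_P1962723 read 5.82 to 8.13 and 4.16 to 5.80.

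The falls named by the same rule follow. Probe A_55_P2491758 read 9.48, 9.12 and 8.96 on the untreated arrays and 5.03, 5.80 and 4.76 at 1 week. The groups did not overlap, and the change of -3.99 (SE 0.70) had a limma adjusted p of 0.025. When the 2 groups alone were fitted the limma adjusted p was 0.011. The pooled spread includes the 10-week arrays, where the SD was 1.79, against 0.26 untreated and 0.54 at 1 week. The call of the main fit was lost in 5 of 17 other settings, 4 of which left out 0-week replicate 1 or 2 or 1-week replicate 2 or 3. The adjusted p ran from 0.0074 to 0.0998 over the 17. The later arrays were spread widely, from 5.65 to 6.99 at 2 weeks and from 4.72 to 8.30 at 10 weeks.

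The other 3 falls were on probes that all untreated arrays detected and no 1-week array did. Probe A_55_P2142941 went from 6.02, 5.31 and 5.06 to 1.34, 1.66 and 1.68, at least 4.68-fold lower (measured change -3.90, limma adjusted p = 0.00018). Probe A_52_P883557 went from 5.98, 5.08 and 4.95 to 1.18, 1.64 and 1.63, at least 4.30-fold lower (measured change -3.85, limma adjusted p = 0.00018). Probe A_52_P436590 went from 5.31, 5.19 and 5.44 to 2.02, 3.01 and 1.42, at least 4.22-fold lower (measured change -3.16, limma adjusted p = 0.0083). These probes entered the test through the untreated group alone, so their measured changes and p-values are given as descriptions, and the bound is the size to read. None of the 2-week or 10-week arrays detected A_55_P2142941 or A_52_P883557, and 1 of them, at 2 weeks, detected A_52_P436590.

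**Figure D3:**
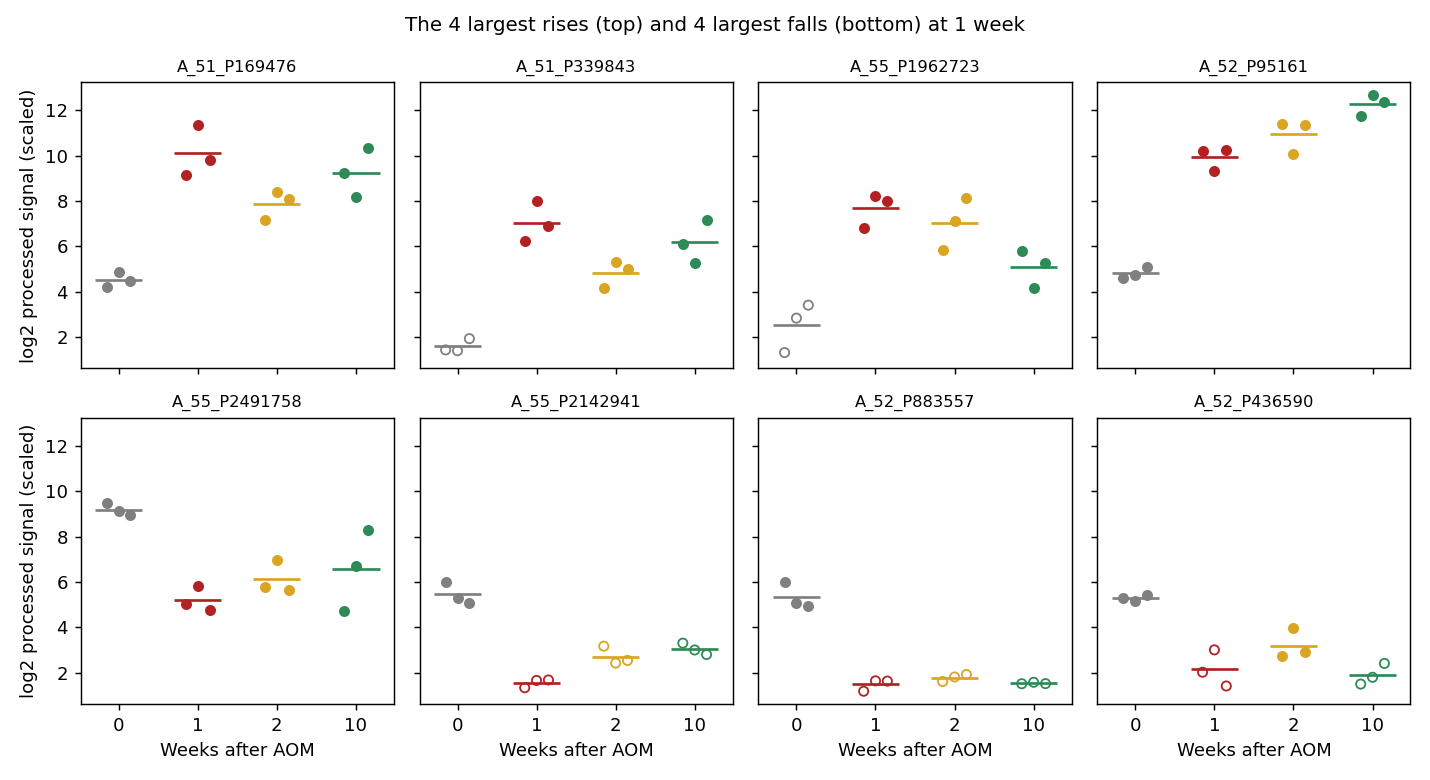
Each panel plots 1 probe's scaled log2 processed signal (y axis) on the 12 arrays by weeks after AOM (x axis), with points for arrays and a line for the mean of 3; open points mark groups in which no array was well above background. The 4 probes of the top row rise between 0 and 1 week and the 4 of the bottom row fall, with no overlap between the arrays of 0 and 1 week in any panel.

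Probes detected in one group alone were counted over all 145548 probes on the array. All 1-week arrays and no untreated array detected 389 (0.267%), and all untreated arrays and no 1-week array detected 283 (0.194%). The balance depended on single arrays. It turned to 561 against 830 without 1-week replicate 1 and was 493 against 491 without 0-week replicate 1. Without any other array, more probes were seen at 1 week alone. The counts were 616 against 445 and 903 against 458 without 0-week replicates 2 and 3. They were 1005 against 351 and 607 against 462 without 1-week replicates 2 and 3. When detection meant a signal above the 95th percentile of the negative controls, the balance was 882 against 855. Of the 389 and 283 probes, 85 and 56 were also called by the fit, and 88 and 71 had a bound of at least 2-fold. These probes entered the test only through the group that detected them. Their calls, measured changes and p-values are therefore descriptions, and the bound is the size to read. Their levels were low, with medians of 4.21 and 4.19 in the group that detected them. Of the probes seen at 1 week alone, the next in brightness after the pair above was A_51_P214127, at 5.46, 7.12 and 5.45, at least 5.91-fold above the untreated arrays (measured change 2.98, limma adjusted p = 0.024). Its call was lost in 7 of 16 other settings, 4 of which left out 0-week replicate 1 or 2 or 1-week replicate 2 or 3, with adjusted p from 0.013 to 0.094 over the 16. On the other side the brightest was A_55_P2716002, with 6.05, 5.59 and 5.64 untreated and 3.04, 3.03 and 3.04 at 1 week, which did not pass the test (limma adjusted p = 0.073). It was called in 4 of 16 other settings, among them the fit of the 2 groups alone (limma adjusted p = 0.011). Its SD was 1.87 on the 10-week arrays, which enter the pooled spread, against 0.25 untreated. After A_55_P2142941 came A_51_P202920, with 5.79, 5.46 and 5.06 untreated and 3.26, 3.50 and 3.59 at 1 week, at least 3.95-fold lower (measured change -1.99, limma adjusted p = 0.019). That call was lost in 5 of 16 other settings, 4 of which left out the same arrays, with adjusted p up to 0.082.

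Among all called probes, 69 passed under all 6 scalings and in all 6 fits that left out 1 array, 53 higher and 16 lower. Their changes ran from 1.05 to 5.59 with a median of 1.91 among the rises, and from -1.20 to -3.90 with a median of -2.07 among the falls. Of the 53 rises 40 were detected on all 6 arrays, as were 5 of the 16 falls. The list also holds probes that entered the test through 1 group alone, among them the fall of -3.90, A_55_P2142941. For these, passing and the measured change are descriptions, and the bound is the size to read. Fitted on the 2 groups alone, 36 of the rises and 10 of the falls passed.

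Within this list, the probes below were chosen after their values were seen. Probe A_51_P205334 read 4.27, 4.64 and 4.83 untreated and 7.08, 7.43 and 7.38 at 1 week, a rise of 2.72 (SE 0.19, limma adjusted p = 0.00018). Probe A_55_P2062246 read 5.97, 6.53 and 6.71 and then 8.79, 9.33 and 9.48, a rise of 2.80 (SE 0.29, limma adjusted p = 0.0038). Both stayed above the untreated arrays on every later array, at 6.51 to 7.73 and at 8.15 to 9.52.

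Probe A_51_P239177 read 5.25, 5.30 and 5.59 untreated and 7.81, 8.06 and 7.76 at 1 week, a rise of 2.50 (SE 0.31, limma adjusted p = 0.0078). Its later arrays, at 4.90 to 6.16 at 2 weeks and 5.95 to 6.89 at 10 weeks, all lay below the 1-week arrays. Among the falls, probe A_52_P524065 had tight groups, with 6.17, 6.23 and 6.13 untreated and 4.06, 4.39 and 4.22 at 1 week, a change of -1.96 (SE 0.14, limma adjusted p = 0.00018). On the later arrays it stayed low, at 4.52 to 4.88 at 2 weeks and 3.92 to 3.998 at 10 weeks. Its lowest untreated array exceeded its highest later one by over 1 on the log2 scale.

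One large fall was back at the untreated level on the later arrays. Probe A_51_P223776 was bright on the untreated arrays, at 10.35, 8.43 and 9.43, and read 6.76, 6.30 and 6.96 at 1 week, a change of -2.73 (SE 0.46, limma adjusted p = 0.022). The untreated arrays spread over nearly 2 on the log2 scale, and the limma adjusted p was 0.068 when the 2 groups alone were fitted. The call was lost in 5 of 17 other settings, among them the fits without 0-week replicate 1, 1-week replicate 2 or 1-week replicate 3, with adjusted p from 0.012 to 0.075 over the 17. On the 6 later arrays it read 8.70 to 10.35, close to the untreated range. It too was chosen after its values were seen.

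Single arrays did not agree equally with their group. Over all tested probes, arrays of 1 group correlated at 0.972 to 0.979 and arrays of different groups at 0.957 to 0.973. The highest correlation between groups, 0.973, was between 0-week replicate 3 and 1-week replicate 1, the 2 arrays that lay alone on their slides. In 6488 probes (11.7%) all 1-week arrays stood above all untreated arrays, and in 6748 (12.2%) they stood below. With a gap of at least 1 on the log2 scale between the groups the counts were 144 (0.260%) and 76 (0.137%), and 112 and 46 of these were called. All called probes had groups that did not overlap.

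A small set of probes differed far more between arrays of 1 group than between the groups. In 29 probes the 3 untreated arrays spanned at least 4 on the log2 scale and so did the 3 AOM arrays, a limit set after the data were seen. In 23 of these 29 the same arrays were high: 0-week replicate 2 among the untreated and 1-week replicates 1 and 3 among the treated. All 23 were catalogue probes. Their median level was 10.42 on 0-week replicate 2 against 1.70 and 1.72 on the other untreated arrays, and 9.65 and 8.96 on 1-week replicates 1 and 3 against 2.04 on replicate 2. Outside the comparison, the medians were 1.65 to 1.82 on the 2-week arrays and 6.57, 2.04 and 4.54 on 10-week replicates 1, 2 and 3. The wide spread within the groups that chose these probes leaves the test between the groups without reach for them. Among them were probes that overlap in sequence, here the pair with the longest shared stretch (31 bases, in capitals):

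A_55_P2095513: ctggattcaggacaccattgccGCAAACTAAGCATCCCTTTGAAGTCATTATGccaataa
A_55_P2101290: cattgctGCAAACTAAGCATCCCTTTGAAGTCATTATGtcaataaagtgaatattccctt

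Probe A_55_P2095513 read 1.87, 11.40 and 1.63 on the untreated arrays and 10.84, 1.57 and 9.31 at 1 week. Probe A_55_P2101290 read 1.35, 10.42 and 1.30 and then 9.91, 1.51 and 8.89. The brightest of the set, A_55_P1982239, read 9.99, 14.33 and 9.82 and then 13.17, 8.85 and 12.83. In each case the high arrays came from both groups, as the choice of the probes required. Which tissue or cell type these probes report was not tested, because none is paired with a gene.

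Each array was also read against calls made without it. Of the 98 probes called without 0-week replicate 1, that array lay nearer its own group on 92 (93.9%). The share was 86.9% for 0-week replicate 2, 88.5% for 1-week replicate 2 and 86.5% for 1-week replicate 3. Without 0-week replicate 3 there were 1303 called probes, and this array lay nearer the untreated group on 683 (52.4%). Without 1-week replicate 1 there were 1224, 624 higher and 600 lower, and the array lay nearer the AOM group on 666 (54.4%). Over all tested probes, the share nearer the own group was 64.3% and 64.5% for 0-week replicates 1 and 2, 57.1% and 59.3% for 1-week replicates 2 and 3, 51.6% for 0-week replicate 3 and 52.2% for 1-week replicate 1. The last 2 arrays stood about midway between the groups on the probes that the other arrays set apart, at a median of 0.469 and 0.439 of the way to the opposite group. For the falls 1-week replicate 1 was further over, at 0.787, against 0.312 for the rises.

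**Figure D4:**
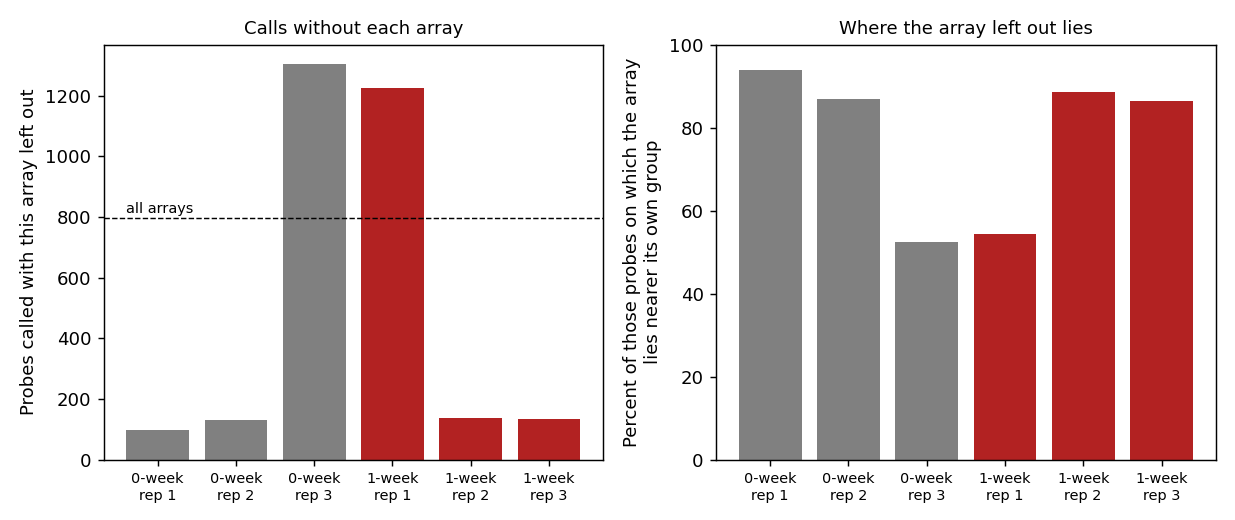
Left, bars give the number of probes called when the array named on the x axis was left out, with a dashed line at the 798 called with all arrays; right, bars give the percent of those probes on which that array lay nearer its own group (grey untreated, red AOM alone). Leaving out 0-week replicate 3 or 1-week replicate 1 gives 1303 and 1224 calls, and these 2 arrays lie nearer their own group on 52.4% and 54.4%, against 86.5% to 93.9% for the other 4.

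The change was then taken separately in the arrays that shared a slide with a replicate (1-week replicates 2 and 3 minus 0-week replicates 1 and 2) and in those alone on a slide (1-week replicate 1 minus 0-week replicate 3), a reading chosen after the data were seen. The 2 sets share no array, and over 55393 probes their changes correlated at 0.206 (0.207 in the deposited values). Of 2112 probes at least 2-fold higher in the first set, 1567 (74.2%) were also higher in the second, where 47.9% of all probes were, and their median change there was 0.41. Of 2309 probes at least 2-fold lower in the first set, 1178 (51.0%) were lower in the second, where 52.1% of all probes were. Their median change there was -0.03. Among probes detected on all 6 arrays, 791 of 967 such rises (81.8%) and 510 of 1194 such falls (42.7%) kept their sign there. These falls had a median change of 0.17 in the second set. Chosen on the second set instead, 1076 of 2052 higher probes (52.5%) and 958 of 1213 lower ones (79.0%) had the same sign in the first, where the shares over all probes were 49.2% and 50.8%. Slide and group cannot be told apart here, and part of what separates the arrays may lie in either.

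The named probes were chosen with groups that do not overlap, which gives their changes the same sign in both sets, so only the sizes can be compared. Probes A_51_P339843, A_55_P1962723, A_55_P2142941, A_52_P883557 and A_52_P436590 were not detected in 1 of the groups. Their values here are descriptions, and the bound given above is the size to read. Among the rises, the change of A_52_P95161 was 5.12 in the first set and 5.10 in the second. It was 6.05 and 4.68 for A_51_P169476, 6.02 and 4.29 for A_51_P339843, and 6.05 and 3.38 for A_55_P1962723, so these 3 were larger in the first set. Among the falls, the values were -4.02 and -3.94 for A_55_P2491758, -3.99 and -3.72 for A_55_P2142941, -3.90 and -3.76 for A_52_P883557, and -3.04 and -3.41 for A_52_P436590. The second set holds 1 array a group, so its values have no replicate check.

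**Figure D5:**
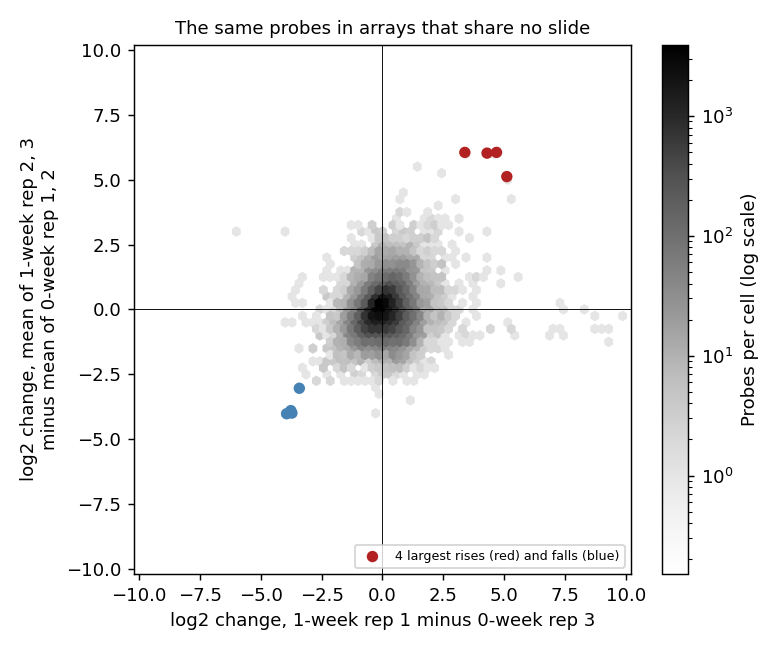
Shading gives the number of probes (log scale) by their log2 change in the arrays alone on a slide (x axis) and in the arrays that shared a slide with a replicate (y axis), and coloured points mark the 4 largest rises (red) and falls (blue). The correlation over all probes is 0.206, and the 8 coloured points have the same sign on both axes, as their choice required. Of the 18 probes over 5 on the x axis and within 2 of 0 on the y axis, 17 belong to the 23 that were high on the same 3 arrays.

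The array held 2 kinds of probes by ID, a catalogue series and a custom series. Of 30871 tested catalogue probes 361 were called higher and 120 lower (1.56%). Of 22080 custom probes outside the ID block described next, 147 were called higher and 127 lower (1.24%). In the block of custom IDs from 75000 to 89999, of 2460 tested, 37 were higher and 6 lower (1.75%). The typical level was 7.04 for the catalogue probes and 5.48 and 5.31 for these custom ones, so the kinds differ in brightness as well as in content. Over all kinds, the median GC content was 43.3% among those called higher, those called lower and those not called. Among catalogue probes it was 43.3% for the falls and 45.0% for the rises and those not called. In the ID block it was 46.7% for the rises, 45.8% for the falls and 48.3% for those not called. The other custom probes had 43.3% in each set. From lowest to highest GC content, in bins of 13852 or 13853 tested probes, 80, 57, 70 and 46 were called lower. The rises in these bins were 139, 126, 141 and 139. Whether GC content bears on the calls was not tested.

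Probes that share sequence were compared within the array. There were 464 pairs of tested probes with the same 60 bases under different IDs, and the changes of the 2 members differed by a median of 0.19, with 95% of pairs under 0.86. In 8 of these pairs a member was called. The members moved in the same direction in all 8, against 341 of all 464 pairs, and in 3 both were called. The 8 pairs were picked by a call, which needs a large change, so their share is not directly comparable with that over all 464. A further comparison took tested probes that share at least 20 bases on the same strand. For 31 called rises with such a partner the median of the partners was also higher in 29, and for 23 called falls it was lower in 19. The partners moved less: the medians were 1.30 for these called rises and 0.74 for their partners, and -1.06 and -0.73 for the falls. Called probes were chosen for large changes on these same arrays and most partners were not, so the choice itself favours smaller changes in the partners. Of 116 such pairings 12 had a called partner, and 99 had the same sign. A pair with both members called counts from each side, so the 12 come from 6 pairs. The pairings include probes with the same 60 bases, and 3 called rises had over 5 partners each. The share with the same sign among overlapping probes without a call was not computed. On the opposite strand, 14 called probes had 83 pairings with such a stretch, and 8 of these had the same sign. The medians over these pairings were 0.74 for the called probes and -0.45 for the partners. Many of them belong to the called probe CUST_OEV3_083994, which begins with an AC repeat. Some partners on the same strand disagreed. Probe A_66_P101942 changed by -1.08, while A_55_P2103698, which shares 35 of its bases and was not called, changed by 1.58. In contrast, a pair whose changes lie close together and were both called is A_51_P197528 and A_55_P2064771, whose longest shared stretch of 48 bases is printed in capitals:

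A_51_P197528: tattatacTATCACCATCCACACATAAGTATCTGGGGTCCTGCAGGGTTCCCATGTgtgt
A_55_P2064771: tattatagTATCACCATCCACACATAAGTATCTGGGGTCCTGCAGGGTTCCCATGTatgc

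The first read 14.45, 14.73 and 15.01 untreated and 15.70, 16.70 and 16.00 at 1 week, a change of 1.41 (limma adjusted p = 0.035), and the second changed by 1.39 (limma adjusted p = 0.026). They are among the brightest called probes. Since they share most of their bases, the 2 are not independent measurements. Grouping called probes by such stretches turned the 798 probes into 792 groups.

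Position could be given only for probes that lie within the short windows around RefSeq gene starts (250 bases before to 50 after the start, GRCm38.p6). Of 32851 windows searched on both strands, 651 probes were found in them, 264 of them tested, and 2 of these were called (0.758%, against 1.44% of all tested probes). These are the called probes with a genome position:

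A_66_P122126: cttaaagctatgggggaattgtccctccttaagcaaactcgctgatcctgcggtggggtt
CUST_OEV3_033587: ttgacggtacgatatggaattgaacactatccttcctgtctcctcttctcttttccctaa

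Probe A_66_P122126 matched chr12:105403710-105403769, upstream of the annotated start of the long non-coding RNA gene Gm46376 by 178 to 237 bases and on the opposite strand. Its level was 4.49, 3.80 and 4.08 untreated and 5.19, 5.27 and 5.37 at 1 week, a rise of 1.15 (SE 0.20, limma adjusted p = 0.024). Probe CUST_OEV3_033587 matched chr15:77375948-77376007, on the strand of the long non-coding RNA gene Gm41353 and 86 to 145 bases before its annotated start. It read 8.50, 8.54 and 8.30 untreated and 7.69, 7.29 and 7.79 at 1 week, a change of -0.86 (SE 0.18, limma adjusted p = 0.047). The groups did not overlap for either probe. The call of the first was lost in 5 and that of the second in 9 of 17 other settings. Both positions lie before the annotated start of the gene named.

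Control probes named for 2 housekeeping genes could be read by gene. For the glycolytic enzyme Pgk1, probe Mouse-PGK1_5 read 10.22, 10.33 and 10.41 untreated and 10.60, 10.91 and 10.84 at 1 week, and all treated arrays stood above all untreated ones. The difference of 0.46 had a two-sided exact permutation p of 0.1, the smallest that 3 against 3 arrays can give, and an adjusted p of 0.4 over the 4 control probes. The other Pgk1 probe, Mouse-PGK1_3, differed by 0.19 (exact permutation p = 0.2). For Gapdh, an enzyme of the same pathway, Mouse-GAPDH_3 differed by -0.20 (exact permutation p = 0.5) and Mouse-GAPDH_5 by 0.08 (exact permutation p = 0.7), and the sign of the last turned under quantile, normexp and deposited values. Of 53 spike-in control probes, whose RNA was added at labelling, 4 stood higher and 1 lower on all 1-week arrays than on all untreated ones, none by 1 or more on the log2 scale.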

How the data were processed

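Colorectal RNA was measured on 12 arrays, 3 per time point. Spot intensity was read by the authors in Agilent Feature Extraction 10.7.1.1, per the file headers; its processed signal is background-subtracted and detrended. They also deposited 1 table of log2 values; its normalization is not given in the sources used here, and its columns share 1 median (2.92). Flagged spots were dropped (18 tested probes lacked 1 value) and spots of a probe averaged. Arrays were scaled by the 75th percentile over 42364 probes detected on all 12 arrays. Group means were fitted in limma 3.58.1 (lmFit, eBayes, R 4.3.3) with Benjamini-Hochberg adjustment. The fit was also run on simulated data with independent noise, which cannot show the effect of slides or of arrays lying between the groups. Named probes were the 4 largest called rises and falls with groups that did not overlap, at least 2 of 3 arrays detected in the higher group and the same sign in the deposited table, plus the 3 brightest probes detected in 1 group alone each way; others were chosen after their values were seen. The rule's genes and the gene lists and cell type markers could not be used, since probes are not paired with genes. Sequences are as deposited; positions come from RefSeq windows (GRCm38.p6). The members and lists were chosen with earlier results of these data known. The labels do not say that arrays came from separate animals, so p-values measure the spread between arrays, which may be technical, and 3 arrays a group limit the precision.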

Additional observations from a re-analysis of the deposited data

How the results depend on the processing

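The number of calls moved with the processing. Against 798 called probes, 549 of them by at least 2-fold, normexp gave 1781 and 162, the slide as a random block 1658 and 868, no filter on dim probes 173 and 170, and the fit of the 2 groups alone 99 and 99. Normexp adds an offset of 50, which by itself shrinks changes of dim probes, and its split was 1037 higher and 744 lower (58.2% higher, against 68.3%). A fit without the 10-week arrays, added after the data were seen, called 446. Leaving out each array in turn gave 98 to 1303 called probes and 97 to 1001 by at least 2-fold; without 1-week replicate 1 51.0% of the calls were higher. The consensus correlation within slides was -0.09. Other scalings gave 797 to 971 calls. Replicate numbers did not pair the arrays (deviations of same-numbered arrays correlated at -0.05, -0.10 and 0.02), and the replicate block gave 541 calls, 441 by at least 2-fold. Probes seen in 1 group alone numbered 672 in all, 1737 with the 95th percentile of the negative controls as the limit, and 984 to 1391 when an array was left out. The median change stayed within the spread of the arrays in each setting run. Of the control probes Mouse-GAPDH_5 reversed, to -0.053 under both quantile and normexp and to -0.058 in the deposited values. For the named probes, no setting turned a direction; of 451 values under other settings, 396 stayed on their side of the threshold, 51 lost the call and 4 gained it. The gene lists could not be run. Dim probes limit the reach: the fold of a probe that a group did not detect is a bound.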
